A study of Mus musculus with 4 samples.

Results

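Haemoglobin-rich spots were the 425 spots, of 10627 kept spots on 4 mouse liver sections, that held the most haemoglobin RNA for their depth. They were profiled by Visium, which places tissue on a slide of barcoded spots, and each captured RNA molecule was counted once through its unique molecular identifier (UMI). Spots with at least 500 UMIs and 250 detected genes were kept. Each was scored by the UMIs of Hba-a1, Hba-a2, Hbb-bs and Hbb-bt per 10000 UMIs, and the top 4% of each section were taken, so that members were chosen by their haemoglobin score. These were 83 of the 2080 spots of STAM16w, 113 of the 2833 of STAM20w, 110 of the 2746 of DEN22w and 119 of the 2968 of DEN30w. Each was paired with the spot of its own section that held 0 UMIs of these 4 genes and was closest to it in UMI total, by at most 0.1 log10 units. A partner was found for 82, 112, 110 and 119 spots, 423 pairs in all. A spot is a small region that can hold several cells of different types, so more red cells in a spot and more haemoglobin RNA per cell cannot be told apart, nor can fewer cells of any type and less RNA per cell.

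STAM16w and STAM20w came from STAM mice, a model of metabolic liver cancer that is likened in the design text to MASH, an inflamed fatty liver, with type I diabetes. DEN22w and DEN30w came from the DEN+CCL4 model of liver cancer, in which DEN, a carcinogen, damages DNA and CCL4, carbon tetrachloride, is a liver toxin that promotes fibrosis. The number in each name was read as weeks, without knowing whether it counts age or time since treatment. Each model and time was 1 fresh frozen section, the labels name no untreated liver, and the models share no time. The deposited matrices held 20700642, 40008457, 22471682 and 34880049 UMIs in the kept spots of STAM16w, STAM20w, DEN22w and DEN30w. Pairs of sections shared 1635 to 2091 barcodes, which in this assay name positions on the slide and not cells.

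Haemoglobin carries oxygen in red cells and is built from alpha chains, encoded by Hba-a1 and Hba-a2, and beta chains, encoded by Hbb-bs and Hbb-bt, each holding a haem group. Mature red cells of mammals have no nucleus, and most of their remaining globin RNA is found in the youngest ones, the reticulocytes. Liver blood enters through portal veins and hepatic arteries, passes through sinusoids lined by a thin endothelium and leaves through central veins, so that large vessels, sinusoids and haemorrhage are all places where red cells are found.

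The scoring genes are transcribed under promoters that carry the short elements known from globin genes, and these are shown to identify the genes behind the score. The windows are the 250 bases before the RefSeq start on GRCm38.p6, written 5′ to 3′ on the gene's strand, at chr11:32283422-32283671 (plus strand) for Hba-a1, chr7:103827929-103828178 (minus strand) for Hbb-bs and chr7:103813924-103814173 (minus strand) for Hbb-bt. Capitals mark every match on either strand to the GATA element (GATAA), the CACCC box (CACCC), the CCAAT box (CCAAT) and the TATA box (TATAA), with overlapping matches merged.
Hba-a1: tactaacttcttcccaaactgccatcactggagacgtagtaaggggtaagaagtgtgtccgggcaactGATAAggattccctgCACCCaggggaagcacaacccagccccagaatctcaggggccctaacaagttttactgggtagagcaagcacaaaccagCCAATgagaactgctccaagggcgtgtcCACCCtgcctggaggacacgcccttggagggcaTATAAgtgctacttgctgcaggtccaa
Hbb-bs: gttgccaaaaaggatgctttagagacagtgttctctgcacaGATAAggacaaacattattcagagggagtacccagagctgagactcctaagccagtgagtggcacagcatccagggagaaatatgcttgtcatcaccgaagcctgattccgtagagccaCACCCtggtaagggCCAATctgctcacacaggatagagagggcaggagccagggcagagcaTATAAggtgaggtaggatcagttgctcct
Hbb-bt: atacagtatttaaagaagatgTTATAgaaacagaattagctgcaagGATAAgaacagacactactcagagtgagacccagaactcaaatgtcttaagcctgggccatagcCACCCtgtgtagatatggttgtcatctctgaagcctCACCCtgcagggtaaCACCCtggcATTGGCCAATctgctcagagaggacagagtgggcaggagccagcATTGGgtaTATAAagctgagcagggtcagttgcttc
In Hba-a1 the GATAA match starts 182 bases before the start, CACCC matches lie at 167 and 60, CCAAT at 88 and TATAA at 27. Hbb-bs holds GATAA at 209, CACCC at 90, CCAAT at 76 and TATAA at 29. Hbb-bt holds GATAA at 204, CACCC at 140, 104 and 89, CCAAT at 75 with reverse-strand matches at 80 and 36, and TATAA at 28 with a reverse-strand match at 229. Of 32851 RefSeq promoter windows of this length, 22.6% held GATAA, 52.0% CACCC, 33.8% CCAAT and 22.8% TATAA, so each element alone is common and a match is only a description. The window of Hba-a2 at chr11:32296242-32296491 (plus strand) shares a run of 247 bases with that of Hba-a1 and is not printed, while the longest run shared by Hbb-bs and Hbb-bt is 14 bases. Hba-a1 and Hba-a2 are near-identical copies, so the split of reads between them is uncertain.

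The haemoglobin scores chose the members and are given here as a description. The median member score per 10000 UMIs was 12.4 for STAM16w, 29.3 for STAM20w, 5.38 for DEN22w and 9.71 for DEN30w, and the highest was 371, 521, 193 and 139. The lowest-scoring member and the highest-scoring spot left out lay at 8.77 and 8.75 in STAM16w, 15.8 and 15.7 in STAM20w, 3.25 and 3.25 in DEN22w, and 5.17 and 5.17 in DEN30w. The same rank therefore stood for different amounts: the median member held 12, 23, 4 and 12 haemoglobin UMIs in that order of sections, and 65 members of DEN22w and 45 of DEN30w held under 5, against 14 in STAM16w and 13 in STAM20w. A single haemoglobin UMI was enough for membership in 3, 2, 22 and 28 spots. Haemoglobin RNA was spread over most spots of the STAM sections, where 24.7% (STAM16w) and 23.0% (STAM20w) of spots held none, and over fewer in DEN22w (74.2% held none) and DEN30w (51.7%). The members held 29.8% and 29.3% of all haemoglobin UMIs in STAM16w and STAM20w, and 63.9% and 61.9% in DEN22w and DEN30w.

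The mixture of the 4 scoring genes within members is likewise a description of the values that chose them, with no test. Beta-chain genes made up 57.0% of the members' haemoglobin UMIs in STAM16w (95% exact binomial interval 54.6 to 59.4, counting error only), 53.0% for STAM20w (51.4 to 54.6), 44.0% for DEN22w (41.4 to 46.7) and 34.7% for DEN30w (33.3 to 36.2). Outside the members the shares were 57.6%, 59.9%, 43.0% and 39.8%. Members of STAM16w held 821 Hbb-bs UMIs, those of STAM20w 1796, those of DEN22w 529 and those of DEN30w 1167. For Hbb-bt the values were 117, 223, 75 and 324, so that Hbb-bs exceeded Hbb-bt by 7.02, 8.05, 7.05 and 3.60 times. Hba-a1 gave 359, 1016, 484 and 1301 UMIs and Hba-a2 348, 775, 284 and 1504. DEN30w members thus had the lowest ratio of Hbb-bs to Hbb-bt, and in that section the ratio was also lowest outside the members (6.69, against 8.59, 9.36 and 9.41 in STAM16w, STAM20w and DEN22w). With 1 section per group these differences have no replicate check.

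Haemoglobin-rich spots lay next to one another more often than their share of spots. Of the adjacent positions of members that were kept spots, 9.32% (STAM16w), 33.4% (STAM20w), 15.4% (DEN22w) and 22.7% (DEN30w) were members too, which is 2.34, 8.37, 3.83 and 5.66 times the members' share of the section. They formed 66, 50, 73 and 71 separate groups, of which the largest held 5, 22, 10 and 8 spots, while 56, 37, 59 and 50 members had no member beside them. STAM20w was the most clustered section, with 62 of its 113 members in groups of at least 3 spots, and STAM16w the least, with 17 of 83. The tissue edge, defined by fewer than 6 adjacent positions over tissue, held 26.8% of paired members, 28.0% of matched spots and 20.3% of all kept spots in STAM16w, and 13.4%, 8.04% and 14.1% in STAM20w. The shares were 20.9%, 9.09% and 12.4% in DEN22w, and 44.5%, 14.3% and 13.6% in DEN30w. Members were thus at the edge more often than both matched and all kept spots in DEN22w and DEN30w, while in STAM16w they were close to the matched spots and in STAM20w close to all kept spots.

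**Figure D1:**
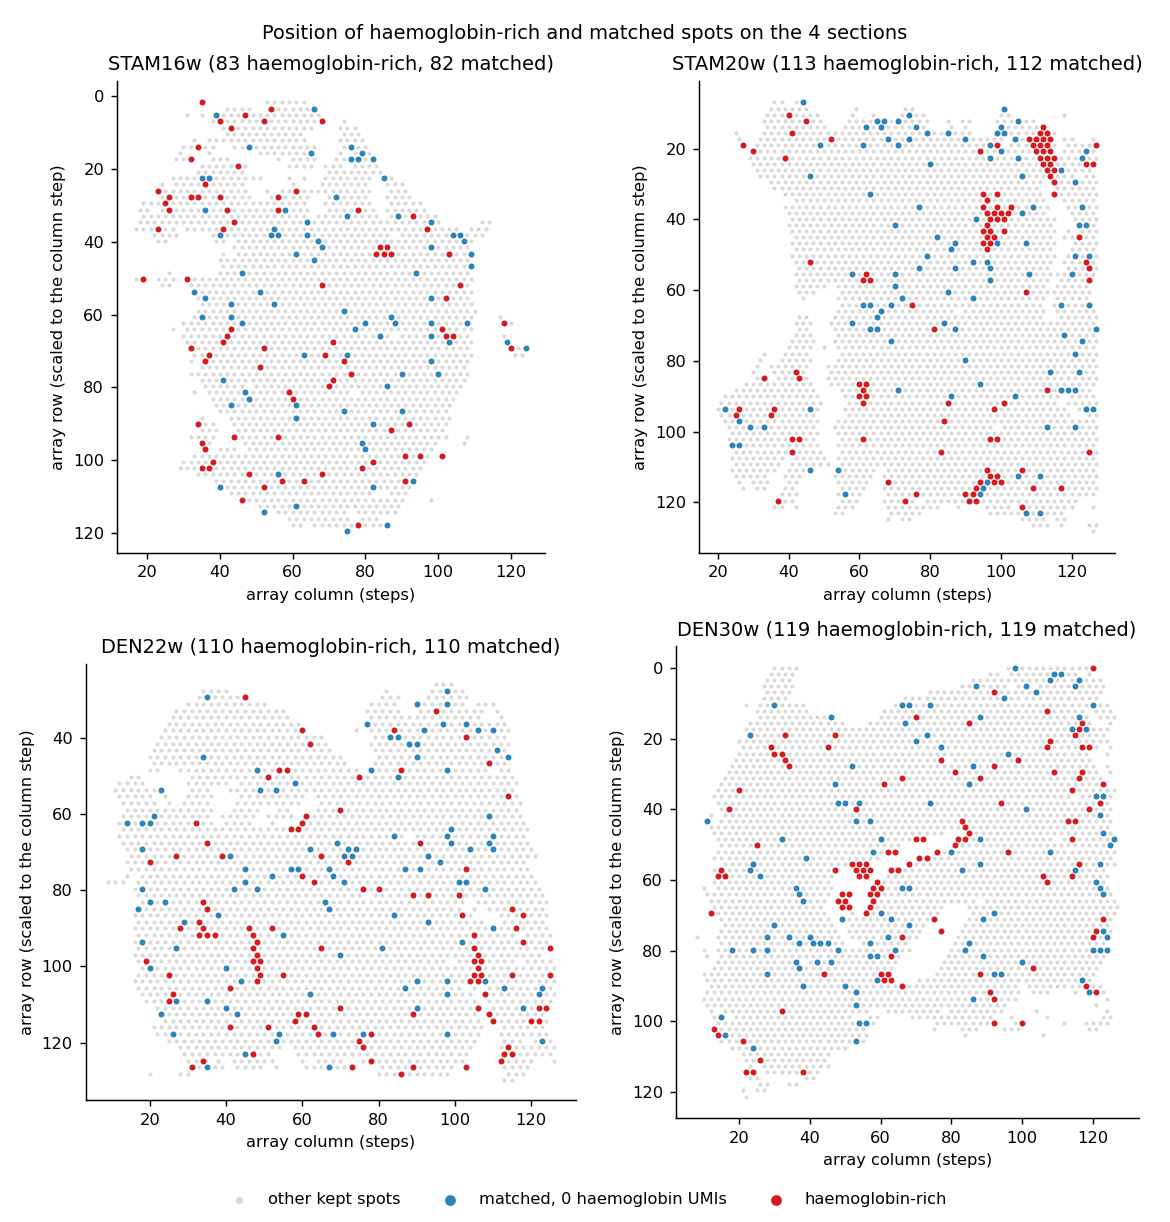
Position of the haemoglobin-rich spots (red), their matched spots with 0 haemoglobin UMIs (blue) and all other kept spots (grey) on the 4 sections, with array column and scaled array row of the slide as axes (steps). The groups of 22 and 20 touching spots in STAM20w are the densest, while most red spots of STAM16w stand alone.

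To ask which other RNA marked these places, the UMIs of each gene were summed over the members and over the matched spots of each section, without the 4 scoring genes, and compared across the 4 sections with section as a block in edgeR's quasi-likelihood test. Levels are given as CPM, the count scaled to 1e+06 UMIs of the class. Median depth was alike by design, 9765.5 UMIs in members and 9774.5 in matched spots of STAM16w, 5398.5 and 5406 in STAM20w, 7178 and 7174.5 in DEN22w, and 11028 and 11026 in DEN30w. Members still held fewer different genes, with medians of 2706.5 against 2740.5, 1940 against 2225.5, 2351.5 against 2430 and 3168 against 3469. Of 7307 genes with enough counts to test, 126 were higher in haemoglobin-rich spots (1.72%) and 37 lower (0.506%) at an adjusted p under 0.05. The genes that rose with the lowest p included the mitochondrially encoded genes, Mgp, Gsn and Col1a1. Of the 126, 110 were higher in 4 of 4 sections, while 32 of the 37 were lower in 4 of 4. Of all 7307 tested genes, 436 were higher and 1356 lower in 4 of 4 sections, 24.5% together. These signs use CPM without TMM factors, and lower in each section was the more common pattern among all genes. In 186 genes (2.55% of those tested) the levels of the 2 classes did not overlap across sections, and 25 of these were among the 163 called. Library totals without TMM factors gave 75 higher and 161 lower genes and moved the median log2 difference of all genes from -0.00409 to -0.128, so the balance of higher to lower calls depends on the scaling and each change below is relative to the typical gene. The call counts also depended on single sections: 200 higher and 69 lower without STAM16w, 87 and 20 without STAM20w, 40 and 3 without DEN22w, and 38 and 2 without DEN30w.

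Genes of red cells other than the scoring genes were at low levels and mostly did not pass the test. All 6 globin genes outside the score, which are embryonic or minor globins, had 0 UMIs in both classes. Of 30 listed haem and membrane genes of red cells found in the files, 13 could be tested, 1 rose and 0 fell, with a median log2 difference of 0.16 against -0.00409 over all genes. The one that rose was Ube2l6, which encodes an enzyme of ISG15 conjugation that reticulocytes also carry. Its level in members and matched spots was 64.3 and 40.2 CPM in STAM16w, 64.4 and 62.8 in STAM20w, 34.9 and 18.6 in DEN22w, and 52.6 and 34.6 in DEN30w, higher in 4 of 4 sections (log2 difference 0.61, SE 0.17, adjusted p = 0.0396 in edgeR's quasi-likelihood test). Without TMM factors 0 genes of this list were called.

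Alas2, the first enzyme of haem synthesis in red cell precursors, stood at 48.2 CPM in members and 37.6 in matched spots of STAM16w, 17.6 and 4.65 in STAM20w, 141 and 146 in DEN22w, and 119 and 105 in DEN30w. The classes overlapped and the matched spots held it as well, and it did not pass the test (log2 difference 0.31, SE 0.15, adjusted p = 0.306 in edgeR). Fech, which inserts iron into the haem ring, had 129 and 123, 99.6 and 88.4, 149 and 136, and 126 and 126 CPM in the same order (adjusted p = 0.411 in edgeR). Bnip3l, which clears mitochondria from maturing reticulocytes, was higher in members of 4 of 4 sections with no overlap, 69.7 and 52.3, 63.3 and 49.997, 55.8 and 44.1, and 69.0 and 53.6 CPM, and missed the threshold (log2 difference 0.49, adjusted p = 0.0621 in edgeR). Bpgm, the red cell enzyme of 2,3-bisphosphoglycerate, gave 0.57 (adjusted p = 0.23) and Slc25a37, the mitochondrial iron importer, 0.16 (adjusted p = 0.700) in the same edgeR test. Of 12 progenitor genes found in the files only Tfrc, the transferrin receptor, and Zfpm1, a GATA1 cofactor, could be tested, and neither was called (log2 differences -0.27 and -0.11).

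Some red cell genes were too rare for the filter on low counts. Slc4a1, the anion exchanger of the red cell membrane, had 1, 3, 0 and 7 UMIs in members of STAM16w, STAM20w, DEN22w and DEN30w and 0, 0, 0 and 1 in matched spots. Tent5c, a poly(A) polymerase, had 5, 6, 2 and 26 against 0, 1, 3 and 7. Ank1, Rhag, Kel, Ermap and Trim58 had 0 UMIs in both classes of all 4 sections. In a fit of all 16644 genes with any count, which called 161 genes higher (0.967%) and 49 lower (0.294%), Tent5c was called (log2 difference 1.93, SE 0.48, adjusted p = 0.00912 in edgeR). The fitted size for such low counts depends on the prior count and is no measured fold.

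Connective tissue genes had the most calls among the cell type lists in edgeR. Of 13 tested genes of the fibroblast and collagen list, 6 rose, 0 fell and the other 7 also had positive values, with a median log2 difference of 0.60. DESeq2, which gave no adjusted p for 6658 of 7307 genes, called 1 of these 13. It called 0 genes of the smooth muscle, platelet, neutrophil, B cell, Kupffer cell and interferon response lists. Mgp, the matrix Gla protein that keeps vessel walls and cartilage from calcifying, stood at 29.5 CPM in members and 4.02 in matched spots of STAM16w, 24.6 and 6.98 in STAM20w, 36.1 and 4.64 in DEN22w, and 50.5 and 6.79 in DEN30w. Every member value lay above every matched value, and the fitted rise was 2.79 on the log2 scale (SE 0.28, adjusted p = 1.15e-08 in edgeR). The counts behind it were small, 22, 21, 31 and 74 UMIs against 3, 6, 4 and 10, and came from 11, 11, 14 and 39 member spots against 3, 6, 4 and 9 matched spots. Mgp lies at chr6:136872435-136875823 on GRCm38.p6.

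Gsn, gelsolin, which severs actin filaments and is high in mesenchymal cells, was at 119 and 29.5 CPM in STAM16w, 25.8 and 22.1 in STAM20w, 55.8 and 29.0 in DEN22w, and 77.9 and 20.4 in DEN30w. It was higher in 4 of 4 sections, least in STAM20w (log2 difference 1.58, SE 0.20, adjusted p = 2.32e-06 in edgeR; chr2:35256359-35307902). Col1a1, the main chain of type I collagen, gave 52.3 and 22.8, 46.9 and 25.6, 59.3 and 25.5, and 90.8 and 50.2 CPM (log2 difference 1.12, SE 0.16, adjusted p = 1.92e-05 in edgeR; chr11:94936224-94953042). It was higher in members of 4 of 4 sections, although the DEN30w matched level fell within the range of the members. Col3a1, of type III collagen, rose by 0.71 (SE 0.13, adjusted p = 0.00111), Col1a2, the other chain of type I collagen, by 0.83 (SE 0.16, adjusted p = 0.00264), and Igfbp7, a secreted vascular protein, by 0.55 (SE 0.10, adjusted p = 0.00111) in the same edgeR test. The Col1a2 call ended and its sign turned when spots were matched on mitochondrial share too (-0.21, adjusted p = 0.983 in edgeR), and without DEN30w it was not called. Summed over the list, members held 776, 834, 850 and 1134 CPM and matched spots 410, 616, 549 and 818.

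Acta2, smooth muscle actin, was the 1 of 3 tested smooth muscle genes that rose. Members held 12, 9, 14 and 44 UMIs and matched spots 1, 0, 2 and 21, which is 16.1 and 1.34 CPM in STAM16w, 10.5 and 0 in STAM20w, 16.3 and 2.32 in DEN22w, and 30.1 and 14.3 in DEN30w (log2 difference 1.90, SE 0.35, adjusted p = 0.00133 in edgeR; chr19:34240336-34255585). The DEN30w matched level fell within the range of the members, so the classes overlapped. In the fit with no filter 4 of 11 smooth muscle genes were called, with a list median of 1.70 against 0.02 over all genes of that fit. They included, chosen after their values were seen, Tagln, an actin-binding protein of contractile cells, with 15, 9, 6 and 42 UMIs in members and 5, 6, 2 and 16 in matched spots (adjusted p = 0.000667 in edgeR), and Myl9, a myosin light chain, with 7, 3, 14 and 44 against 2, 3, 8 and 7 (adjusted p = 2.29e-05 in edgeR).

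Vim, the intermediate filament protein of mesenchymal and endothelial cells, and S100a6, a calcium-binding protein, were singled out after their values were seen because both were called however a section was left out. Vim stood at 22.8 and 10.7, 73.8 and 25.6, 38.4 and 15.1, and 62.8 and 36.7 CPM (log2 difference 1.25, SE 0.19, adjusted p = 5.01e-05 in edgeR), and S100a6 at 61.6 and 14.8, 119 and 70.9, 17.4 and 4.64, and 49.2 and 31.9 CPM (1.11, SE 0.18, adjusted p = 0.000257 in edgeR). Among 8 stellate cell genes, markers of the vitamin A storing pericytes of the liver, only Dcn rose, a collagen-binding proteoglycan at 127 and 75.1, 189 and 174, 148 and 81.3, and 183 and 124 CPM (0.66, SE 0.12, adjusted p = 0.0013 in edgeR), and the list median was 0.06. Of the lists for the bile duct and the liver capsule, 0 of 2 tested cholangiocyte genes were called, and the 8 mesothelial genes, none testable, summed to 13.4 and 6.71, 9.37 and 8.14, 3.49 and 13.9, and 14.3 and 9.50 CPM.

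**Figure D2:**
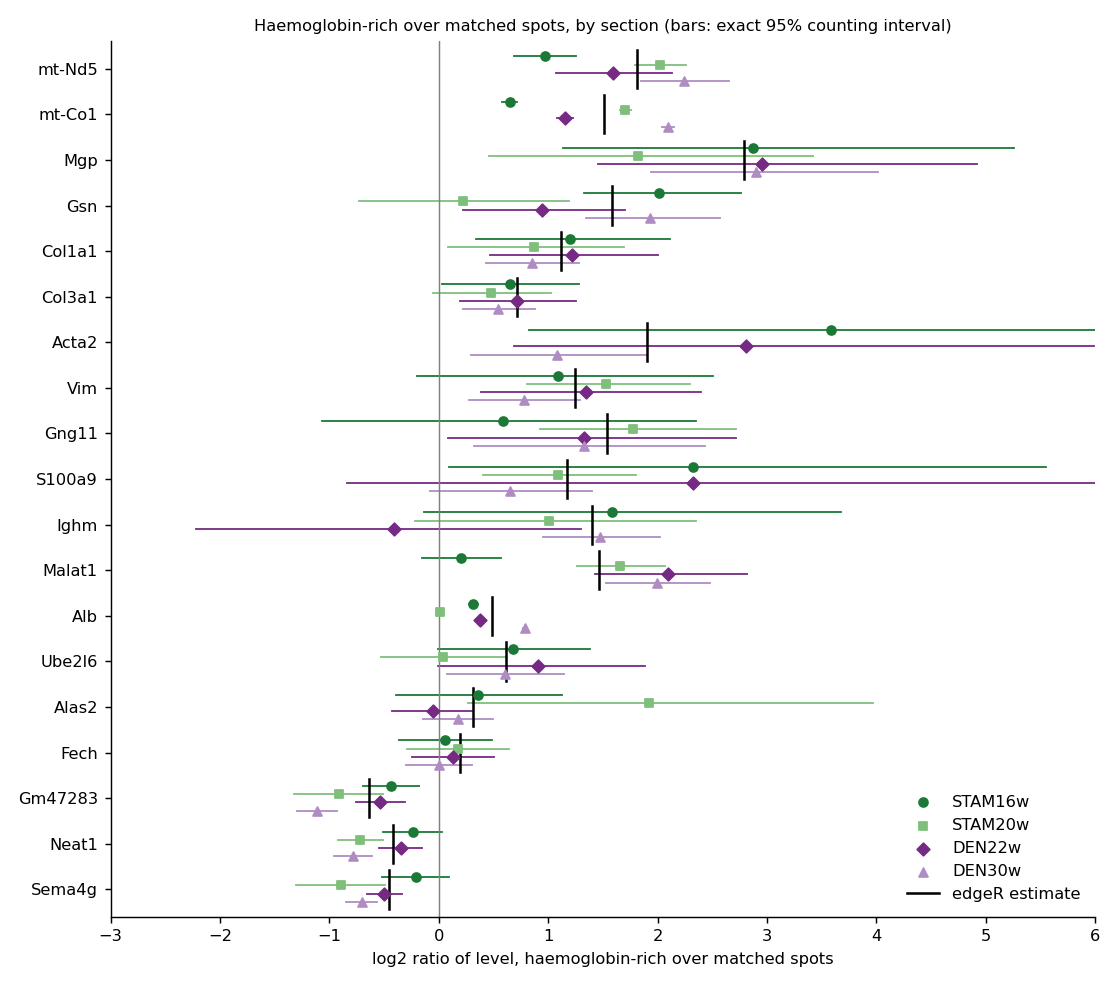
Log2 ratio of the level in haemoglobin-rich over matched spots for 19 genes, with a point per section, exact 95% counting intervals as coloured bars (clipped at 6) and the edgeR estimate as a black line. Acta2 has no point in STAM20w, where the matched spots held 0 UMIs, and the Mgp points lie at 2.87, 1.82, 2.96 and 2.90 in STAM16w, STAM20w, DEN22w and DEN30w.

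No gene of the endothelial lists passed the filtered test. None of the 4 tested vein and artery endothelial genes was called, with a list median of 0.51, and Pecam1, an adhesion molecule of all endothelium, gave 0.75 (adjusted p = 0.125 in edgeR). The summed list was higher in members of each section, 186 against 126, 343 against 198, 136 against 131 and 163 against 130 CPM. Vwf, the von Willebrand factor of large-vessel endothelium and platelets, was below the filter. Chosen after its values were seen, it had 7, 36, 6 and 21 UMIs in members and 2, 10, 0 and 1 in matched spots, found in 7, 29, 6 and 17 members against 2, 10, 0 and 1 matched spots, and was called in the fit with no filter (log2 difference 2.54, SE 0.37, adjusted p = 6.04e-09 in edgeR). Vwf was the only 1 of 19 vein and artery endothelial genes called in that fit, where the list median was 0.59 against 0.02 over all genes. Of 12 tested genes of sinusoidal endothelium, the fenestrated lining of the liver's capillaries, 0 were called, with a median of 0.24.

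Of the tested genes of other blood cells, 1 of 2 on the platelet list and 1 of 2 on the neutrophil list rose. Gng11, a G-protein subunit on the platelet list that endothelium also expresses, was at 12.1 and 8.05, 59.7 and 17.4, 23.3 and 9.29, and 20.5 and 8.15 CPM (log2 difference 1.53, SE 0.26, adjusted p = 0.000436 in edgeR). Only 2 of 16 platelet genes could be tested, and 4 had 0 UMIs. The platelet list summed to 48.2 and 48.3, 143 and 52.3, 50.02 and 53.4, and 49.9 and 33.9 CPM, higher in members of STAM20w and DEN30w. Ppbp, a platelet chemokine below the filter, had 0, 14, 0 and 3 UMIs in members and 0 in matched spots, and was called in the fit with no filter (adjusted p = 0.035 in edgeR). S100a9, a calcium-binding protein that neutrophils make in bulk, gave 13.4 and 2.68, 66.8 and 31.4, 5.82 and 1.16, and 28.7 and 18.3 CPM (1.18, SE 0.25, adjusted p = 0.00596 in edgeR). It was higher in 4 of 4 sections and highest in STAM20w. The neutrophil list as a whole summed to 168 and 142, 1479 and 1448, 27.9 and 18.6, and 981 and 1116 CPM, lower in members of DEN30w. Plac8, the 1 tested blood monocyte gene, gave 0.63 (adjusted p = 0.053 in edgeR), and none of the T and NK cell genes was called, with 1 of 15 tested.

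Immunoglobulin genes are multigene families in which reads can be shared, and single spots carried much of their signal. Ighm, the IgM heavy chain and the 1 tested B cell gene, was at 16.1 and 5.37, 21.1 and 10.5, 6.98 and 9.29, and 79.2 and 28.5 CPM, higher in 3 of 4 sections (log2 difference 1.4004, SE 0.24, adjusted p = 0.00042 in edgeR). In DEN30w 1 member spot held 48 of its 116 UMIs, and without DEN30w Ighm did not pass the filter on low counts. Matched to spots within 6 spot steps it turned to -0.32 (adjusted p = 0.535 in edgeR), and in the top 8% of spots it was not called. Igkc, the kappa light chain of plasma cells, was at 18.8 and 16.1, 31.6 and 692, 5.82 and 15.1, and 404 and 172 CPM (-0.67, adjusted p = 0.522 in edgeR). In STAM20w 1 matched spot held 585 of the 595 Igkc UMIs of its class (98.3%). With that pair left out, a choice made after seeing the data, Igkc was called higher (1.21, SE 0.19, adjusted p = 9.65e-05 in edgeR), and the totals were 127 higher and 34 lower genes, of which 122 and 34 were among those of the full set of pairs.

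Macrophage and interferon genes gave scattered calls. Adgre1, the macrophage receptor F4/80, rose (log2 difference 1.01, SE 0.23, adjusted p = 0.0117 in edgeR) while the other 11 tested Kupffer cell genes were not called and the list median was 0.02. H2-Aa, a chain of MHC class II, rose by 0.72 (adjusted p = 0.00345 in edgeR) as 1 of 4 antigen presentation genes. None of the 10 genes of lipid-associated macrophages was called. Of 10 interferon response genes 2 rose: Rsad2, the antiviral enzyme viperin, at 36.2 and 9.39, 17.6 and 8.14, 4.65 and 1.16, and 26.6 and 12.9 CPM (1.46, SE 0.28, adjusted p = 0.00242 in edgeR), and Ifi27l2a, an interferon-induced membrane protein, by 0.57 (adjusted p = 0.0117 in edgeR).

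**Figure D3:**
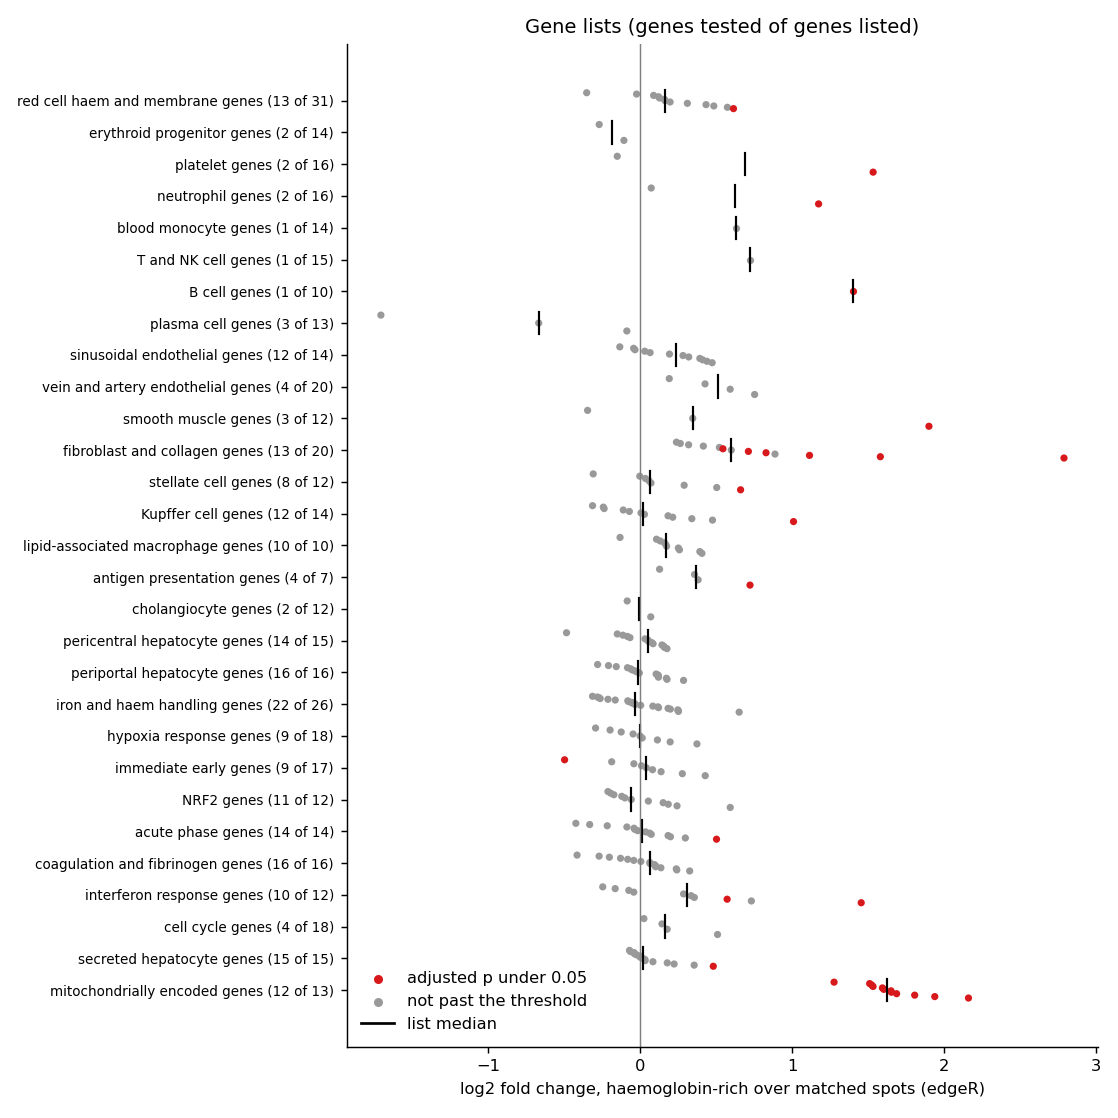
Log2 fold change of each tested gene (points, red where the adjusted p was under 0.05) and the list median (black line) for the gene lists, with genes tested of genes listed beside each name. The mitochondrially encoded genes have a median of 1.63 and the fibroblast and collagen genes one of 0.60, while the pericentral and periportal hepatocyte lists lie near 0.

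The mitochondrially encoded genes, which make subunits of the respiratory chain inside the organelle, were the list with the most calls. All 12 that could be tested rose, each in 4 of 4 sections, by 1.28 to 2.16 on the log2 scale with a median of 1.63. mt-Co1, a subunit of cytochrome c oxidase, stood at 6625 and 4234 CPM in STAM16w, 16787 and 5153 in STAM20w, 5660 and 2548 in DEN22w, and 11016 and 2578 in DEN30w (1.51, SE 0.15, adjusted p = 1.6e-08 in edgeR). mt-Nd5, of the first complex, gave 414 and 212, 911 and 224, 147 and 48.8, and 205 and 43.4 CPM (1.81, SE 0.15, adjusted p = 5.89e-10 in edgeR), and mt-Atp8, of the ATP synthase, 72.4 and 33.5, 160 and 32.6, 48.9 and 9.29, and 36.9 and 5.43 CPM (2.16, SE 0.21, adjusted p = 4.98e-09 in edgeR). Member and matched levels did not overlap for 10 of the 12, the exceptions being mt-Nd5 and mt-Nd4l. Of these 3 genes each had its smallest ratio in STAM16w.

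In the pairs, mitochondrial RNA made up 3.04% of the members' UMIs and 1.90% of the matched spots' in STAM16w, 7.67% and 2.24% in STAM20w, 2.81% and 1.21% in DEN22w, and 4.89% and 1.15% in DEN30w. The member had the higher share in 58 of 82 pairs (70.7%), 99 of 112 (88.4%), 79 of 110 (71.8%) and 98 of 119 (82.4%). In STAM20w 44 members and 5 matched spots exceeded 10%, against 1 and 0 in STAM16w. The share was higher in groups of at least 3 members (3.30%, 9.39%, 4.23% and 5.80%) than in members with none beside them (2.82%, 6.11%, 1.51% and 3.21%). Summed over spots, it was higher at the tissue edge (3.40%, 9.78%, 3.95% and 5.76%) than in interior members (3.02%, 7.33%, 2.56% and 3.41%). In STAM20w the median spot went the other way, with 6.14% in the 15 edge members and 8.55% in the 98 interior members. The summed share of interior members still lay above that of the matched spots of their sections. Spots ranked from 4% to 8% by score, just outside the members, had 2.59%, 5.95%, 1.69% and 2.32%, against 1.87%, 2.23%, 1.19% and 1.15% in their own matched spots. A high mitochondrial share also marks RNA of poor quality or damaged tissue. A fit with spots matched on it too is given below, but its part in the other differences was not tested.

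**Figure D4:**
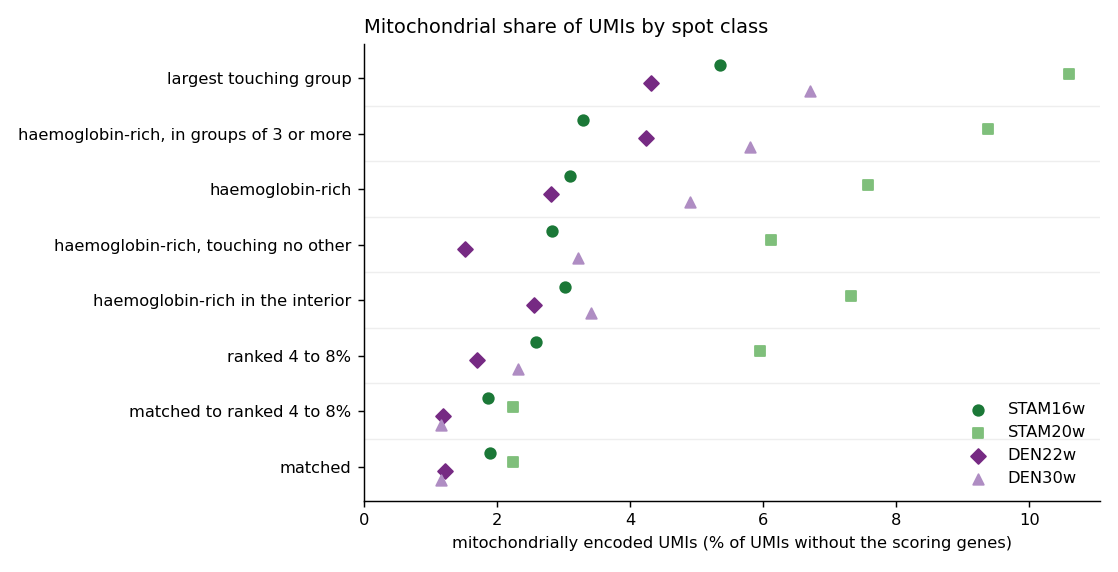
Mitochondrially encoded UMIs as a percent of all UMIs without the scoring genes, summed over each class of spots (rows), with a point per section. Members lie above their matched spots in each section, and the largest touching group of STAM20w is highest at 10.6%.

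Other RNAs of no single cell type moved as well. Malat1, a long RNA kept in the nucleus, was at 190 and 165, 257 and 81.4, 114 and 26.7, and 130 and 32.6 CPM (log2 difference 1.46, SE 0.19, adjusted p = 3.49e-06 in edgeR; chosen after its values were seen). Neat1, another nuclear RNA and the scaffold of paraspeckles, fell, at 287 and 338, 367 and 603, 436 and 555, and 296 and 510 CPM (-0.42, SE 0.10, adjusted p = 0.0113 in edgeR), so the 2 nuclear RNAs went opposite ways. Gm42418, a locus that overlaps ribosomal RNA sequence, was at 414 and 420, 898 and 242, 472 and 195, and 1451 and 285 CPM, higher in 3 of 4 sections (1.54, adjusted p = 3.49e-06 in edgeR). Of 88 cytoplasmic ribosomal protein genes, a family examined after the values were seen, 39 rose and 0 fell, with a median of 0.32, and 84 had positive values. Without TMM factors 20 of 88 rose and the median was 0.21. Their summed share of UMIs was 4.66% and 4.48%, 9.41% and 7.23%, 3.87% and 3.37%, and 4.33% and 3.65%.

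Hepatocyte zonation genes did not pass the test. None of 14 tested pericentral genes (median 0.05) and none of 16 periportal genes (median -0.01) was called. Cyp2e1, a pericentral cytochrome, gave 0.18 (adjusted p = 0.404), Ass1, a periportal enzyme of the urea cycle, 0.17 (adjusted p = 0.399) and Pck1, of glucose production, -0.28 (adjusted p = 0.131) in edgeR. Of 15 secreted hepatocyte proteins Alb, serum albumin, was called higher, at 14318 and 11504 CPM in STAM16w, 24010 and 23846 in STAM20w, 45332 and 34868 in DEN22w, and 40855 and 23640 in DEN30w (0.48, SE 0.12, adjusted p = 0.0243 in edgeR). Its levels differed more between sections than between classes. Among 14 acute phase genes only Apcs, serum amyloid P, rose (0.50, adjusted p = 0.0177 in edgeR), and 0 of 16 coagulation genes were called.

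Genes that handle free haemoglobin and iron were not called. Of 22 tested iron and haem genes 0 rose and 0 fell, with a median of -0.03. Hpx, the plasma carrier of free haem, gave 0.25 (adjusted p = 0.233), Trf, transferrin, 0.25 (adjusted p = 0.216) and Ftl1, the ferritin light chain, 0.12 in edgeR. None of 9 hypoxia response genes and none of 11 NRF2 genes, which answer oxidative stress, was called, and of 9 immediate early genes Zfp36, which destabilises inflammatory mRNAs, fell (-0.50, adjusted p = 0.0423 in edgeR).

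Among the 37 genes that fell, Gm47283, a gene model, was at 295 and 398, 91.4 and 172, 322 and 467, and 251 and 542 CPM (log2 difference -0.64, SE 0.10, adjusted p = 0.000232 in edgeR), and it was the 1 of 37 called in each of the fits that left out a section. Sema4g, a membrane semaphorin, gave 221 and 256, 93.7 and 174, 658 and 929, and 458 and 747 CPM (-0.46, adjusted p = 0.00852 in edgeR). Lgals4, a galectin, was at 34.8 and 56.3, 21.1 and 52.3, 33.7 and 47.6, and 33.5 and 65.2 CPM with no overlap between the classes (-0.74, SE 0.17, adjusted p = 0.0113 in edgeR). Xdh, xanthine dehydrogenase of purine breakdown, fell by 0.50 and Xylb, xylulokinase, by 0.60, each lower in 4 of 4 sections. Of all 7307 tested genes, 1356 were likewise lower in 4 of 4. Among the 126 that rose, 26 were called in each fit without a section: the 12 mitochondrial genes, Col1a1, Col3a1, Gsn, Mgp, Vim, S100a6, Gng11, Malat1, Gm42418, Tmsb4x, Pabpc1, Rpl22l1, Rps27 and Rps29. All 126 and all 37 kept their sign in these fits.

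Because mitochondrial share moved with the members, spots were also matched within 0.1 of its log10 value, an alternative chosen after seeing the data, which left 67, 70, 96 and 68 pairs. Of 5521 tested genes 7 were higher (0.127%) and 4 lower (0.0725%), and 5 of the 7 and 0 of the 4 were among the calls made without this matching. Mgp (log2 difference 1.67, SE 0.33, adjusted p = 0.00167 in edgeR) and Gsn (1.24, SE 0.21, adjusted p = 5.04e-05 in edgeR) were still called. Of the 26 genes that rose in each fit without a section, the only others still called were Tmsb4x and mt-Nd2. Vim, S100a6, Malat1, Col3a1, Gm42418 and Pabpc1 were not among the calls. Col1a1 (0.54, adjusted p = 0.536), Gng11 (0.84, adjusted p = 0.578) and Alb (0.12, adjusted p = 0.785) were not called in this edgeR fit, and Neat1 was at -0.03. The fibroblast list had 2 of 11 genes called and a median of 0.32, and 0 of 87 ribosomal protein genes were called, with a median of 0.02. Fabp4 (0.81) and Fabp5 (0.80), carriers of fatty acids of endothelium, fat cells and macrophages, were called higher. The 4 lower calls were Igkc (-2.08), Nupr1, a stress-induced chromatin protein (-1.97), Slpi, a secreted protease inhibitor (-1.63), and Spp1, osteopontin (-0.79). These pairs are fewer and fewer genes were tested, and how much of each lost call comes from that was not tested. With the pairs of dominant Igkc spots also left out (67, 69, 96 and 67 pairs remained), 4 genes were called higher, Gsn, Fabp4, Fabp5 and Tmsb4x, and 0 lower, with 320 of 5429 genes at an unadjusted p under 0.05 in edgeR. In that fit Slpi turned to 0.39 (adjusted p = 0.970 in edgeR) and Spp1 stayed at -0.79 (adjusted p = 0.348 in edgeR). Mgp fell below the filter there and was not tested.

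**Figure D5:**
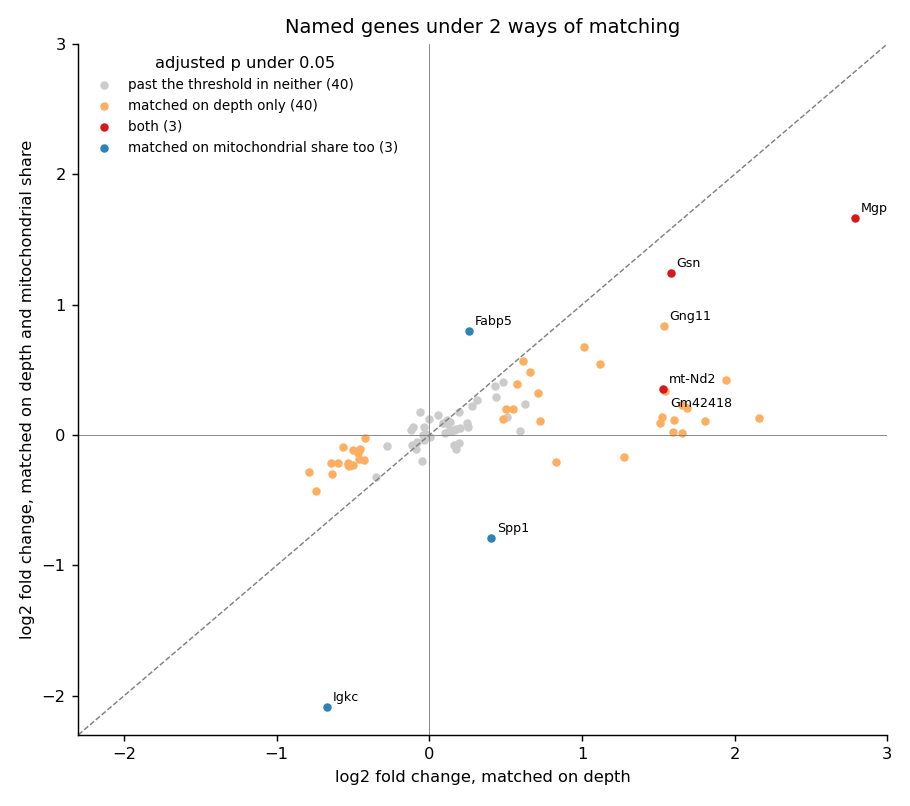
Log2 fold change of the 86 named genes tested both ways, matched on depth (horizontal) and on depth and mitochondrial share (vertical), coloured by the matching under which the adjusted p was under 0.05; the dashed line marks equal values. Of these genes 40 were called with depth matching only, 3 with both and 3 with mitochondrial matching only, and 40 with neither.

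Members in groups carried more Mgp than lone members. In groups of at least 3 spots Mgp was at 83.8, 25.8, 49.6 and 65.4 CPM in STAM16w, STAM20w, DEN22w and DEN30w, and in members with none beside them at 4.02, 6.96, 28.7 and 23.8. The counts were small, 15, 9, 20 and 53 UMIs in the groups and 2, 3, 10 and 9 in lone members. Lone members of STAM16w and STAM20w were level with all matched spots of their sections (4.02 and 6.98 CPM). Those of DEN22w and DEN30w lay above theirs (4.64 and 6.79 CPM). The largest group of each section was at 269, 73.3, 91.0 and 50.5 CPM (12, 4, 14 and 8 UMIs) and had 5.35%, 10.6%, 4.32% and 6.70% mitochondrial RNA. In DEN30w its Mgp level was thus below the 65.4 CPM of all groups of at least 3 spots. Spots ranked from 4% to 8% by score held 7.34, 10.6, 1.26 and 41.2 CPM, against 4.92, 7.78, 18.9 and 13.3 in their matched spots, so that just outside the members Mgp was higher than matched in 3 of 4 sections and lower in DEN22w. With interior spots only, 98 genes were higher and 17 lower, of which 86 and 13 were among the calls over all pairs.

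Whether the contrast differed between STAM and DEN+CCL4 sections was tested as an interaction, with 2 sections in each model. None of 7307 genes had a larger rise in STAM (0% of those tested), and 3 had a lower difference in STAM (0.0411%), with 393 at an unadjusted p under 0.05 in edgeR. These were Ighg2b, an IgG heavy chain (-6.25, SE 0.40, adjusted p = 9.08e-23), Igkc (-4.83, SE 0.38, adjusted p = 5.63e-18) and Slpi, a secreted protease inhibitor (-2.42, SE 0.38, adjusted p = 2.11e-05). Ighg2b stood at 0 and 0 CPM in members and matched spots of STAM16w, 11.7 and 695 in STAM20w, 2.33 and 0 in DEN22w, and 112 and 90.3 in DEN30w. Slpi stood at 2.68 and 1.34, 67.9 and 164, 2.33 and 1.16, and 65.6 and 29.2. The STAM20w matched spots stood apart, and there the spot that dominated Igkc held 592 of 598 Ighg2b UMIs (99.0%) and 81 of 141 Slpi UMIs (57.4%). With its pair left out, Igkc gave -0.30 (adjusted p = 0.970) and Slpi -1.23 (adjusted p = 0.644) in edgeR, Ighg2b no longer passed the filter, and 1 other gene, Sprr1a, a cornified envelope protein, was called higher in STAM (2.94, SE 0.58, adjusted p = 0.0168 in edgeR).

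The spots adjacent to members, themselves outside the top 4%, were compared by the same test with spots at no member's side, matched on depth (341, 325, 424 and 385 pairs). Unlike the matched spots of the members, these distant spots were not limited to 0 haemoglobin UMIs. Of them 78.0% (STAM16w), 69.2% (STAM20w), 22.2% (DEN22w) and 41.8% (DEN30w) held some. Of 11122 tested genes 28 were higher beside members (0.252%) and 2 lower (0.018%). These were fewer calls than for the members, whose contrast was with spots free of haemoglobin UMIs, so the 2 contrasts are not alike. Haemoglobin itself, which the rule used, was at 2.33, 3.53, 0.480 and 1.23 per 10000 beside members and 2.08, 1.95, 0.369 and 0.748 in the distant spots. Of the 12 mitochondrial genes 10 rose, with a median of 0.21 against 1.63 in the members, and the mitochondrial share was 2.16% and 2.15%, 4.26% and 3.48%, 1.352% and 1.24%, and 1.96% and 1.58%. Gsn rose here too, at 48.4 and 31.6, 26.9 and 20.04, 32.9 and 24.6, and 43.3 and 32.7 CPM (log2 difference 0.49, SE 0.09, adjusted p = 0.0016 in edgeR), and Col3a1 by 0.27 (adjusted p = 0.038 in edgeR). Igkc was at 16.2 and 11.5, 29.3 and 19.5, 12.3 and 7.07, and 553 and 288 CPM, higher in 4 of 4 sections (0.92, SE 0.07, adjusted p = 1.5e-18 in edgeR).

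Of 12 tested interferon response genes 3 rose beside members and 0 fell, with a list median of 0.13 against 0.00152 over all genes: Rsad2 by 0.69 (adjusted p = 0.0123), Ifit1 by 0.70 (adjusted p = 0.038) and Isg15, the ubiquitin-like modifier, by 0.43 (adjusted p = 0.00505) in edgeR. The summed list was not higher in each section, at 3161 and 3028, 2631 and 2697, 1526 and 1560, and 2060 and 2019 CPM. Cmpk2, a mitochondrial nucleotide kinase outside the list, rose by 0.97 (adjusted p = 0.00467 in edgeR). Rab4b, an endosomal GTPase (-0.47, SE 0.11, adjusted p = 0.019), and Nupr1, a stress-induced chromatin protein (-0.32, adjusted p = 0.0287), were the 2 that fell in edgeR. The neighbour calls rested on single sections: 2 higher and 0 lower genes without STAM20w, 10 and 0 without DEN30w, 31 and 6 without STAM16w and 30 and 4 without DEN22w, and 0 of the 28 were called in all of these fits. Matching each neighbour to a distant spot within 6 spot steps left 6 higher and 0 lower.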

How the data were processed

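The deposited matrices hold UMI counts per spot and gene (32285 genes), made with Space Ranger 1.3.1 and STAR on mm10 per the submitters' processing notes; the annotation, the settings and the use of strand are not given in the sources used here. The members, lists and comparisons were chosen with earlier results of these data known. Sums of raw counts per section and class, without the 4 scoring genes, were tested with edgeR 4.0.16 in R 4.3.3 (filterByExpr, TMM factors, glmQLFit and glmQLFTest, section as block, Benjamini-Hochberg adjustment over all genes tested), after the fits were tested on simulated data. A class needed at least 20 pairs. Spots were handled in Python 3.11.15 with numpy 2.4.6, scipy 1.17.1, pandas 2.3.3 and matplotlib 3.10.9. DESeq2 1.42.0, other scalings, filters, shares of spots and matchings, and leaving out each section were alternatives. Named genes were the 15 with lowest adjusted p in each direction, the called members of each list (or, where none was called, up to 3 of highest level) and red cell genes with at least 10 UMIs in members, and others are marked as chosen after their values were seen. The labels do not tie the sections to animals, so p-values measure only the spread between these sections. Intervals cover counting error only. No doublet caller was run, since spots can hold several cells. Gene names are those of the files, and coordinates and promoters are from RefSeq on GRCm38.p6, matched by symbol.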

Additional observations from a re-analysis of the deposited data

Results flagged for a closer look

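In 3 genes the difference between haemoglobin-rich and matched spots was not the same in the STAM and the DEN+CCL4 sections by the interaction test in edgeR: Ighg2b (-6.25 on the log2 scale), Igkc (-4.83) and Slpi (-2.42). In STAM20w 1 matched spot held 592 of 598 Ighg2b UMIs, 585 of 595 Igkc UMIs and 81 of 141 Slpi UMIs of its class. Without the pair of that spot, chosen after seeing the data, Igkc gave -0.30 and Slpi -1.23, neither called, and Ighg2b did not pass the filter on low counts. Without STAM20w, 2 genes were called higher and 14 lower in STAM, and 0 of them were among these 3. Without DEN30w 0 genes were called in edgeR, with 305 at an unadjusted p under 0.05. In each of these fits 1 of the 3 passed the filter and was tested.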

How the results depend on the processing

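Limits: 4 sections, 1 per model and time, carry all tests. In DEN22w and DEN30w many members held under 5 haemoglobin UMIs, and low counts left most red cell, platelet and smooth muscle genes untested. No paired analysis was possible because each group has 1 section, so replicate numbers pair nothing between groups; within sections, members and matched spots were paired through the section block. Alternatives marked as added were chosen after seeing the data. Counts are given as higher, then lower, then both together where needed.

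For haemoglobin-rich against matched spots, DESeq2 called 63, 8 and 71 (307 at an unadjusted p under 0.05; 6658 adjusted p were not given), no TMM factors gave 75 and 161, no section block 1, 0 and 1 (162 unadjusted), interior spots 17 lower (added), matching on mitochondrial share 7, 4 and 11 (added), and that without dominant Igkc spots 4, 0 and 4 (added). Leaving out a section gave 38 to 200 higher, 2 to 69 lower and 40 to 269 in all. The top 2%, top 8%, at least 5 haemoglobin UMIs, at least 2000 UMIs, local matching and no filter stayed within 1.5 times the main counts, as did both other ways of matching and comparing on depth. The genes behind these counts changed more. Of the 126 higher and 37 lower main calls, local matching called 87 and 19 again, the top 2% 95 and 17, and the top 8% 101 and 25. At least 5 haemoglobin UMIs kept 117 and 32, at least 2000 UMIs 111 and 34, and no filter 117 and 35. Among named genes Ighm turned to -0.32 with matching within 6 spot steps. Igkc turned to 1.28 against spots at or below the median score, 1.16 without STAM20w (-3.39 without DEN30w, the other end) and 1.21 without the dominant spot. With mitochondrial matching mt-Cytb turned to -0.17, Col1a2 to -0.21 and Spp1 to -0.79, and without dominant Igkc spots mt-Cytb to -0.16, Col1a2 to -0.12 and Spp1 to -0.79. For the difference by model DESeq2 called 0 lower and 0 in all (19 unadjusted), no filter 2, 7 and 9, the top 2% 1 lower and 1 in all with Igkc at 0.60, at least 5 haemoglobin UMIs 5 and 5, and without the dominant Igkc spot 1, 0 and 1. Leaving out a section gave 0 to 2, 0 to 14 and 0 to 16. For neighbours DESeq2 called 1, 0 and 1 (64 unadjusted), the top 8% 13, 4 and 17, no section block 0, 0 and 0 (27 unadjusted), matching within 6 spot steps 6, 0 and 6, totals without scoring genes 17, 0 and 17, mitochondrial genes left out 17 higher and 19 in all, and at least 2000 UMIs 1 lower. Leaving out a section gave 2 to 31, 0 to 6 and 2 to 37. In the top 2% of neighbours Igkc turned to -0.34, Ighm to -0.54 and Gstm3 to -0.26. The causes were not tested.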

Other observations

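The fit with no filter on low counts called 36 genes that the filter had left out, 32 higher and 4 lower. Those named here were chosen after their values were seen, and some calls rested on 1 section. Ighg1, of the plasma cell list, had the lowest p, with 224 UMIs in DEN30w members, 70 in matched spots and 0 in the other sections (adjusted p = 5.46e-13 in edgeR). Its list did not move with it: of 13 plasma cell genes in that fit 1 rose and 2 fell, with a median of -0.34. In the filtered test 0 of 3 plasma cell genes were called, with a median of -0.67. H19 was called higher (1.32, adjusted p = 0.000226 in edgeR) with 99 against 20 UMIs in STAM20w, but was lower in 3 of 4 sections. Ccl21a, a chemokine of lymphatic endothelium, had 17, 0, 16 and 36 UMIs in members of STAM16w, STAM20w, DEN22w and DEN30w and 1, 0, 1 and 10 in matched spots (log2 difference 2.64, adjusted p = 4.14e-09 in edgeR), so it was not seen in STAM20w. On the fibroblast and collagen list 3 of the 32 were found. Eln, elastin, had 11, 9, 8 and 30 UMIs against 1, 3, 4 and 20 (1.22, adjusted p = 0.0201 in edgeR). Fbln1, a matrix glycoprotein, had 4, 2, 4 and 20 against 4, 0, 1 and 1 (2.32, adjusted p = 0.0199 in edgeR), most of it in DEN30w, and Mfap4, a fibre-associated glycoprotein, 4, 3, 5 and 20 against 2, 1, 2 and 3 (2.04, adjusted p = 0.0256 in edgeR). Myh11, smooth muscle myosin, had 2, 3, 7 and 25 against 0, 2, 5 and 5 (1.70, adjusted p = 0.0342 in edgeR). Outside the lists Fbln5, which assembles elastic fibres, had 7, 11, 7 and 26 against 1, 3, 3 and 11 (1.64, adjusted p = 0.00305 in edgeR), and Notch3, a receptor of mural cells, 2, 8, 11 and 11 against 0, 1, 2 and 3 (2.46, adjusted p = 0.00545 in edgeR). Cavin2, a caveolar protein of endothelium, rose by 1.5003 (adjusted p = 0.000361) and S100a8, the partner of S100a9, by 1.02 (adjusted p = 0.0119) in edgeR. The 4 that fell were Gm42031, Msantd2, Acrbp and Gm43449. Fitted sizes at such counts depend on the prior count and are not measured folds.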
